A study of Mus musculus with 4 samples.

Results

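Pancreatic beta cells of late db/db islets, aged 98 days, were set against beta cells of early db/db islets, aged 70 days. Db/db mice carry a defect in the leptin receptor gene and become obese and diabetic, and per the labels' protocols they were allocated to groups at random once hyperglycaemic. Beta cells were taken by a fixed rule on the counts of unique molecular identifiers (UMIs, each standing for 1 captured RNA molecule). Barcodes of 1000 or more UMIs and 500 or more genes were kept where mitochondrially encoded genes held no more than 20% of the UMIs. Beta cells were selected on hormone counts: Ins1 and Ins2 together had to reach 20% of a barcode's UMIs, while Gcg, Sst and Ppy each stayed under 5%. The rule found 820 beta cells among 6301 kept cells of late db/db and 1595 among 4800 of early db/db, 2415 cells of 20845 kept cells in the whole series.

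Islet cells had been profiled by 10x Genomics 3′ single-cell sequencing, with 1 library for each of 4 groups: late db/db at 98 days, early db/db at 70 days, and late db/db with intervention and normal control, both at 98 days. The mice were male, and the strain label is C57BL/KsJ db/db for every library, the control included, although the growth protocol also names C57BL/6 mice. What the intervention was, and how many mice each library pooled, are not given in the sources used here. The deposited matrix of early db/db has a name like that of a further control, and its sample label was followed. The db allele is carried by every cell from birth, so the comparison is between 2 ages of diabetic islets. The leptin receptor gene Lepr had 9 UMIs in late and 2 UMIs in early db/db beta cells, and counts of 3′ ends do not check the allele. Age, animals, library and depth cannot be told apart with 1 library a group, no test was possible, and the 95% intervals given cover counting error only.

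Beta cells store insulin in granules, and their endoplasmic reticulum folds large amounts of proinsulin. When folding demand or amino acid supply is out of balance, kinases of the integrated stress response phosphorylate the initiation factor eIF2α, general translation slows, and the transcription factor ATF4 is translated instead. ATF4 and its partners bind CARE sites (C/EBP-ATF response elements) in genes for amino acid synthesis, amino acid transport and glutathione turnover. In long-standing diabetes beta cells are also known to lose maturity genes and to gain genes that healthy beta cells hardly express.

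Apart from markers of acinar cells, the integrated stress response had the lowest median ratio of late over early db/db among the gene lists with at least 5 measured members, so the promoter stretches of 5 of its genes are shown first. The stretches come from the RefSeq promoter table (GRCm38.p6), read 5′ to 3′ on the gene's own strand, with the CARE match in capitals. The motif searched was TGATGNAA on both strands, in the window from 250 bases before to 50 bases after the start of each transcript.
Chac1: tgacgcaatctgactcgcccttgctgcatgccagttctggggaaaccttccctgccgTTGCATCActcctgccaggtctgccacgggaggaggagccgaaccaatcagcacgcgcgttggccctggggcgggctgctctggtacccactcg
Nupr1: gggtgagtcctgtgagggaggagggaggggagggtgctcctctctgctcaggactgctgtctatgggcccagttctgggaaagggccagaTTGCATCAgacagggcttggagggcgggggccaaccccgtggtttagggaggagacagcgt
Pck2: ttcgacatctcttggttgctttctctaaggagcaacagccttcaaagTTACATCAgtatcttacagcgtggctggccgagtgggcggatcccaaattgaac
Pycr1: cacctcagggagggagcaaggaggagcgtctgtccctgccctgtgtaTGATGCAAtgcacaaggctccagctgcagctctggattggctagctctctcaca
Asns: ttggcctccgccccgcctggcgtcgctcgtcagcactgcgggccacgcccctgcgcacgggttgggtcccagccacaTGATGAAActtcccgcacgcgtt
The Chac1 stretch lies at chr2:119350992-119351142 on the plus strand, and that of Nupr1 at chr7:126625520-126625670 on the minus strand, within the span that the GENCODE annotation gives the gene. The Pck2 stretch lies at chr14:55540116-55540216 on the plus strand, that of Pycr1 at chr11:120643798-120643898 on the minus strand, and that of Asns at chr6:7693210-7693309 on the minus strand. The match began 193 bases before the start in Chac1, 110 in Nupr1, 103 in Pck2 and Pycr1, and 23 in Asns. Of the 16 measured genes of the list, 15 were in the promoter table, and 5 of them (33.3%) held the motif. The share was 4.51% over all 27025 genes in the table and 2.84% over the 2782 measured genes there. Of the 18 listed genes that were too low to be measured, 14 were in the table, and 5 of them (35.7%) held the motif too. The list holds known ATF4 targets, so a high share was built into its choice. A match is a description of the letters and is no evidence of binding in these cells.

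The 2 libraries held 120934779 UMIs in 7162 barcodes for late db/db and 125498999 UMIs in 6655 barcodes for early db/db, and shared 11 barcodes, none of them a beta cell in both. Beta cells were 13.01% of kept cells in late db/db (95% Clopper-Pearson interval 12.2 to 13.9) and 33.2% in early db/db (31.9 to 34.6). Among alpha, beta and delta cells taken by like hormone rules they were 78.6% of 1043 cells in late db/db (76.0 to 81.1) and 66.2% of 2411 cells in early db/db (64.2 to 68.0), so the order of the ages turned with the denominator. The median beta cell held 88070.5 UMIs and 6488.5 genes in late db/db, against 56238 UMIs and 4954 genes in early db/db. Just inside the insulin limit, at 20 to 25% of UMIs, lay 54 cells of each library, and just outside it, at 15 to 20%, lay 42 cells of late and 41 of early db/db.

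Insulin took a median of 42.8% of a beta cell's UMIs in late db/db and 49.2% in early db/db, a measure that the rule used and that is given as a description. Ins1 took 4.47% of all beta cell UMIs in late db/db and 4.90% in early db/db, and Ins2 took 39.0% and 43.7% in the same order. Iapp, the amylin gene, took 11.1% in late and 11.7% in early db/db. The rule fixed that insulin led Gcg, Sst and Ppy, so these shares are no check of the label. Iapp, which the rule did not use, was high in both libraries. Gcg, Sst, Ppy and Pyy each took at most 0.0731% of the beta cell UMIs in either library. Mitochondrial genes took a median of 3.45% of a cell's UMIs in late and 2.88% in early db/db, and their ratios on the scale used below ran both ways, with log2 ratios of 0.54 for mt-Nd1 and -0.13 for mt-Atp6.

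Levels of all other genes are given as CPM, the gene's UMIs per 1000000 UMIs outside 7 hormone genes and the mitochondrial genes. Those UMIs numbered 28347379 in late and 30584725 in early db/db beta cells. A gene entered when its higher library reached 50 CPM and its UMIs in the pair of libraries reached 50. Of 3443 genes that entered, 97.2% differed by less than 1.5-fold, and the middle 90% of log2 ratios (late over early) ran from -0.42 to 0.43 around a median of -0.07. Differences of 2-fold or more were found for 41 genes (1.19% of those entered), 15 of them higher in late db/db (0.436%) and 26 lower (0.755%). Differences of 1.5-fold or more were found for 96 genes (2.79%), 48 higher (1.39%) and 48 lower (1.39%), so that higher genes were 36.6% of the 2-fold and 50% of the 1.5-fold differences. The split depended on the scaling. With all UMIs of the beta cells as denominator the median of all genes was 0.10, 1379 genes entered, and 80 genes were higher and 15 lower by 1.5-fold, while with TMM factors 38 were higher and 60 lower. Most measured genes outside the hormones were thus at close levels in the 2 libraries.

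Most of the genes that were 2-fold apart were far higher in other cells of the samples. Of the 26 lower genes, 19 were at least 5 times as high in the kept cells outside the beta cell rule, and 12 of them are listed acinar markers, genes of the digestive enzymes that the exocrine pancreas secretes. Prss2, a trypsinogen gene, had 37.5 CPM in late and 236 CPM in early db/db beta cells, a log2 ratio of -2.65 (-2.75 to -2.56). Clps, the colipase gene, had 25.2 CPM in late and 188 CPM in early db/db, a log2 ratio of -2.90 (-3.01 to -2.79). All 12 acinar markers that entered, of 13 listed, were lower in late db/db by at least 2-fold, where 0.755% of all genes that entered were. Amy2a2 was at 0 UMIs in both libraries. The summed level of the list was 402 CPM in late and 2360 CPM in early db/db beta cells, and in alpha cells of the same libraries 842 and 9170 CPM.

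Of the 15 higher genes, 5 were high in other cells of the sample. Ccl21a, a chemokine gene of lymphoid stroma, had 3661 UMIs in late and 6 UMIs in early db/db beta cells, and 79.9% of the late UMIs lay in 8 cells. Igkc, the immunoglobulin kappa constant gene of B cells, had 142 CPM in late and 26.7 CPM in early db/db. Cd74 and H2-Aa, genes of MHC class II antigen presentation, had 124 and 53.0 CPM in late against 18.7 and 6.60 CPM in early db/db. These are genes of lymphoid, stromal and antigen-presenting cells, each higher in late db/db. Apoe, abundant in macrophages, had 50.2 CPM in late and 16.7 CPM in early db/db. The top 1% of beta cells were 8 cells in late and 15 in early db/db. These cells held 46.7% of the late and 79.7% of the early Cd74 UMIs, and 48.8% and 76.2% of those of H2-Aa. For Apoe the shares were 49.5% and 22.7%, and for Igkc 10.6% and 38.1%, in the same order. The whole list of 7 B cell markers summed to 317 CPM in late and 55.9 CPM in early db/db beta cells, and the 8 T and NK cell markers to 39.9 and 2.62 CPM. The part of RNA from other cells in the values of single genes was not tested beyond a subtraction of free RNA, under which 11 genes were higher and 10 lower by 2-fold.

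A further 4 of the higher genes were hemoglobin genes. Hbb-bs had 295 CPM in late and 99.2 CPM in early db/db beta cells. The 4 hemoglobin genes held 15872 UMIs in late db/db, 97.7% of them in 2 of the 820 barcodes, and 5720 UMIs in early db/db, 92.6% of them in 3 of the 1595 barcodes. Without these 5 barcodes, which were singled out after their values were seen, the log2 ratio of Hbb-bs was -0.076. The genes left were 6 higher and 7 lower by 2-fold, and 38 higher and 28 lower by 1.5-fold.

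**Figure D1:**
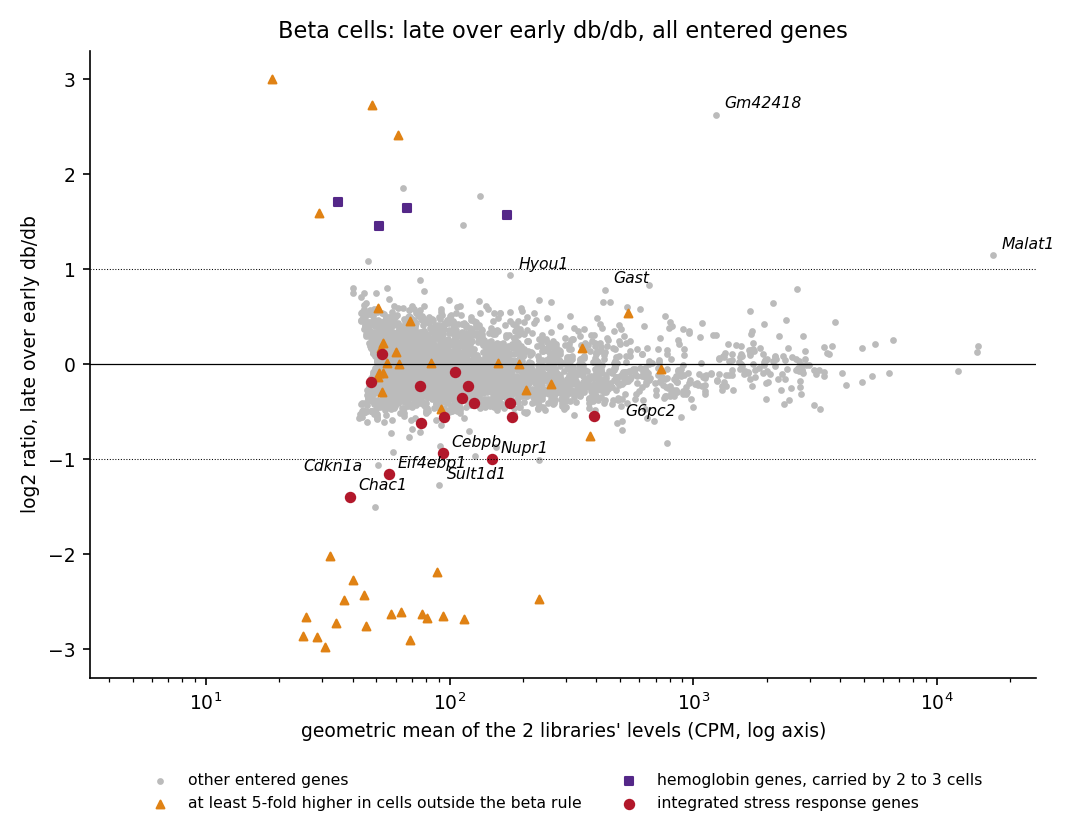
Log2 ratio of late over early db/db beta cells (y axis) against the geometric mean of both levels (CPM, log x axis) for the genes that entered, each point 1 gene. Orange triangles are genes at least 5 times as high in cells outside the beta cell rule, purple squares hemoglobin genes and red points the 16 measured integrated stress response genes. Dotted lines mark 2-fold. Ccl21a, at 9.36, lies above the axis.

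Genes of the integrated stress response were lower in late db/db beta cells. Of the 34 listed genes 16 entered, 15 of them had a log2 ratio below 0 and 1 above it, and 5 were at least 1.5-fold lower and none higher, where 1.39% of all genes that entered were lower by as much. Their median log2 ratio was -0.48, against -0.07 for all genes that entered. The list had been chosen with earlier results of these data known, so this is a description. The median ran from -0.53 to -0.24 over the other settings tried, which included a minimum of 10 CPM and no filter on low values. Entry needed 50 CPM in the higher library only, and Chac1, Eif4ebp1 and Ddit4 were below 50 CPM in late db/db. At low levels that rule favours genes with large ratios in either direction, and it was the same for all genes. The counts and the median of -0.48 thus rest on genes picked in part by the size of their ratio.

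Among the measured genes of the response Chac1, Eif4ebp1 and Nupr1 differed most. Chac1 (ENSMUSG00000027313, GRCm38 chromosome 2, 119351229 to 119354381), whose enzyme degrades glutathione, had 679 UMIs or 23.95 CPM in late and 1926 UMIs or 63.0 CPM in early db/db. Its log2 ratio was -1.39 (-1.52 to -1.27), and its level in the other libraries was 37.8 CPM with the intervention and 13.5 CPM in the control. Early db/db was the highest of the 4 libraries for Chac1. In kept cells outside the beta cell rule Chac1 stood at 3.27 CPM in late and 10.3 CPM in early db/db, below the beta cells of the same library.

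Eif4ebp1 (chromosome 8, 27260329 to 27276674) encodes a repressor of cap-dependent translation and had 37.7 CPM in late and 84.0 CPM in early db/db, a log2 ratio of -1.15 (-1.26 to -1.05). Its level was 58.2 CPM with the intervention and 52.1 CPM in the control, so that early db/db was again the highest library and late db/db the lowest. Nupr1 (chromosome 7, 126623249 to 126630861), a stress-induced nuclear protein gene, had 106 CPM in late and 211 CPM in early db/db, a log2 ratio of -1.001 (-1.06 to -0.94). Other kept cells held 64.1 CPM of Nupr1 in late and 391 CPM in early db/db, a difference in the same direction. Trib3, a pseudokinase gene induced by ATF4, did not enter and had 4.76 CPM in late and 17.5 CPM in early db/db. Other stress genes of the list were close at both ages. Ppp1r15a and Ddit4, which entered, had log2 ratios of -0.08 (-0.15 to -0.01) and -0.19 (-0.30 to -0.08). Sesn2, which did not enter, had a log2 ratio of -0.13 (-0.26 to -0.002).

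The transcription factors of the response differed less than Chac1 and Eif4ebp1, while the interval of Cebpb overlapped that of Nupr1. Cebpb had 68.1 CPM in late and 131 CPM in early db/db, a log2 ratio of -0.94 (-1.02 to -0.86), with 71.1 CPM with the intervention and 59.5 CPM in the control. Kept cells outside the beta cell rule held more Cebpb, 174 CPM in late and 250 CPM in early db/db. The log2 ratio of Cebpb was -0.30 in alpha cells (98 late and 341 early UMIs) and -0.72 in delta cells (45 and 72 UMIs). Atf4 itself had 323 CPM in late and 472 CPM in early db/db, a log2 ratio of -0.55 (-0.58 to -0.51), with 350 CPM with the intervention and 430 CPM in the control. Atf5 had 109 CPM in late and 145 CPM in early db/db, and 335 CPM in the control. Ddit3, which encodes the pro-apoptotic factor CHOP, had 110 CPM in late and 129 CPM in early db/db, a log2 ratio of -0.23 (-0.30 to -0.16). Late db/db was below early db/db for each of these factors, and for Atf4 and Atf5 below the control as well. Relative to alpha and delta cells, where its log2 ratios were -0.18 and -0.78, Ddit3 turned to 0.25. The listed factor gene Atf3 did not enter and was on the other side. Atf3 had 22.2 CPM in late and 18.6 CPM in early db/db, a log2 ratio of 0.25 (0.09 to 0.42), and 1.91 CPM in the control.

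Most measured amino acid genes, a group that ATF4 is known to drive, were lower in late db/db. Mthfd2, of mitochondrial folate metabolism, had 61.7 CPM in late and 94.5 CPM in early db/db, a log2 ratio of -0.62 (-0.70 to -0.53). Pck2, the mitochondrial phosphoenolpyruvate carboxykinase gene, had 78.3 CPM in late and 115 CPM in early db/db. Slc3a2, the shared heavy chain of several amino acid transporters, had 149 CPM in late and 219 CPM in early db/db. Each of these was lower at the later age. Asns, the asparagine synthetase gene, had 154 CPM in late and 204 CPM in early db/db, and Pycr1, of proline synthesis, had 99.1 and 127 CPM. Aldh18a1, also of proline synthesis, was the 1 gene of the list that entered with a log2 ratio above 0, at 54.7 CPM in late and 50.9 CPM in early db/db, a log2 ratio of 0.10 (-0.00 to 0.20). Most listed amino acid and folate genes that did not enter were below 0 as well, with Slc7a5 and Aldh1l2 on the other side. Slc7a5, the light chain that pairs with Slc3a2, had 18.8 CPM in late and 13.99 CPM in early db/db, a log2 ratio of 0.43 (0.24 to 0.62), and the folate gene Aldh1l2 had a log2 ratio of 0.21 (0.03 to 0.38). The amino acid transporter genes Slc7a3 and Slc7a11 had log2 ratios of -1.60 (-2.24 to -0.995) and -1.18 (-1.495 to -0.87). Phgdh, Psph and Psat1 had log2 ratios of -0.43, -0.37 and -0.34. Slc7a1 and Slc6a9 were also below 0, and so were Shmt2 and Cth, whose intervals held 0. The 14 measured cytosolic tRNA synthetase genes, which overlap the response's known targets, had none past 1.5-fold and a median of -0.17.

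**Figure D2:**
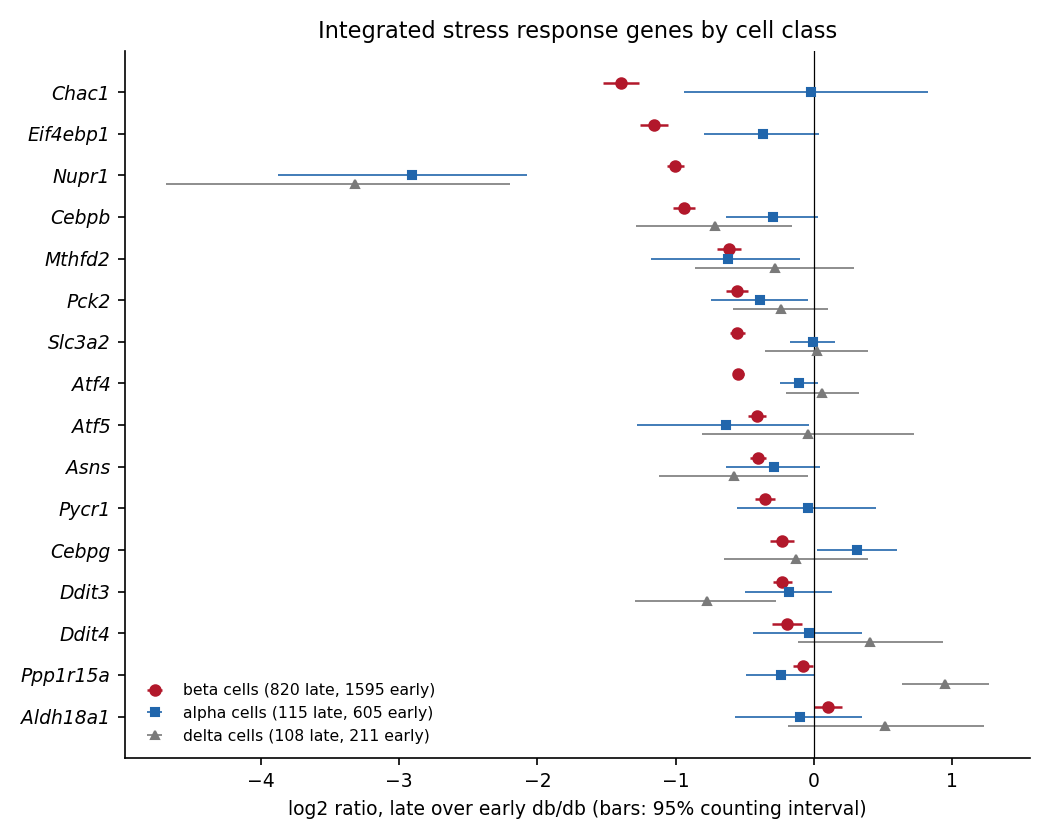
Log2 ratio of late over early db/db (x axis) for the 16 measured integrated stress response genes (rows) in beta cells (red circles), alpha cells (blue squares) and delta cells (grey triangles), with 95% counting intervals. Alpha and delta points are drawn where the class held at least 50 UMIs of the gene and some in each library. Beta cell points run from -1.39 for Chac1 to 0.10 for Aldh18a1.

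Alpha and delta cells of the same libraries, 115 and 108 cells in late and 605 and 211 in early db/db, were set beside the beta cells. They share libraries with them and are no independent repeat. Over the 13 genes of the response measured in all 3 classes the median log2 ratio was -0.41 in beta, -0.24 in alpha and -0.13 in delta cells, against medians of -0.07, 0.02 and -0.06 for the 3301 genes measured in all 3 and not high in other cells. Below 0 were 12 of the 13 genes in alpha and 8 in delta cells, against 1560 and 1916 of the 3301 genes. Atf4 had a log2 ratio of -0.55 in beta cells, -0.11 in alpha cells (554 late and 1688 early UMIs) and 0.06 in delta cells (250 and 233 UMIs). Slc3a2 had a log2 ratio of -0.55 in beta, -0.01 in alpha and 0.02 in delta cells. Nupr1 had a log2 ratio of -1.001 in beta cells, -2.91 in alpha and -3.32 in delta cells, on 12 late and 255 early UMIs in alpha cells and 7 and 68 in delta cells. Acinar markers summed to 842 CPM in late and 9170 CPM in early alpha cells and to 1199 and 9992 CPM in delta cells, and their part in the values of Nupr1 was not tested.

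Cell by cell, every quartile was lower in late db/db, and the gap was widest in the upper part of the distribution. The 34 listed genes together took a median of 16.5 of 10000 non-hormone UMIs in a late db/db beta cell, with quartiles of 13.2 and 21.1, against a median of 21.98 with quartiles of 16.9 and 30.5 in early db/db. At the 90th percentile the values were 27.9 in late and 43.3 in early db/db. Of the late db/db beta cells 22.3% were above the early median. The medians were 17.7 with the intervention and 20.8 in the control.

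The list was lower in late db/db in each group of cells by depth or insulin share. With the cells of each library split into 3 equal groups by UMIs, the list summed to 1945 CPM in late and 2917 CPM in early db/db among the shallowest cells, to 1807 and 2568 CPM in the middle group, and to 1808 and 2438 CPM among the deepest. With cells split in the same way by insulin share, which the rule used, the list summed to 1634, 1937 and 1943 CPM from the lowest to the highest group in late db/db, and to 2433, 2614 and 2691 CPM in early db/db. Every group of late db/db was below every group of early db/db in both splits. Chac1 was higher in cells of higher insulin share inside each library, at 18.5, 26.2 and 27.5 CPM in late and 51.1, 67.0 and 73.6 CPM in early db/db.

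**Figure D3:**
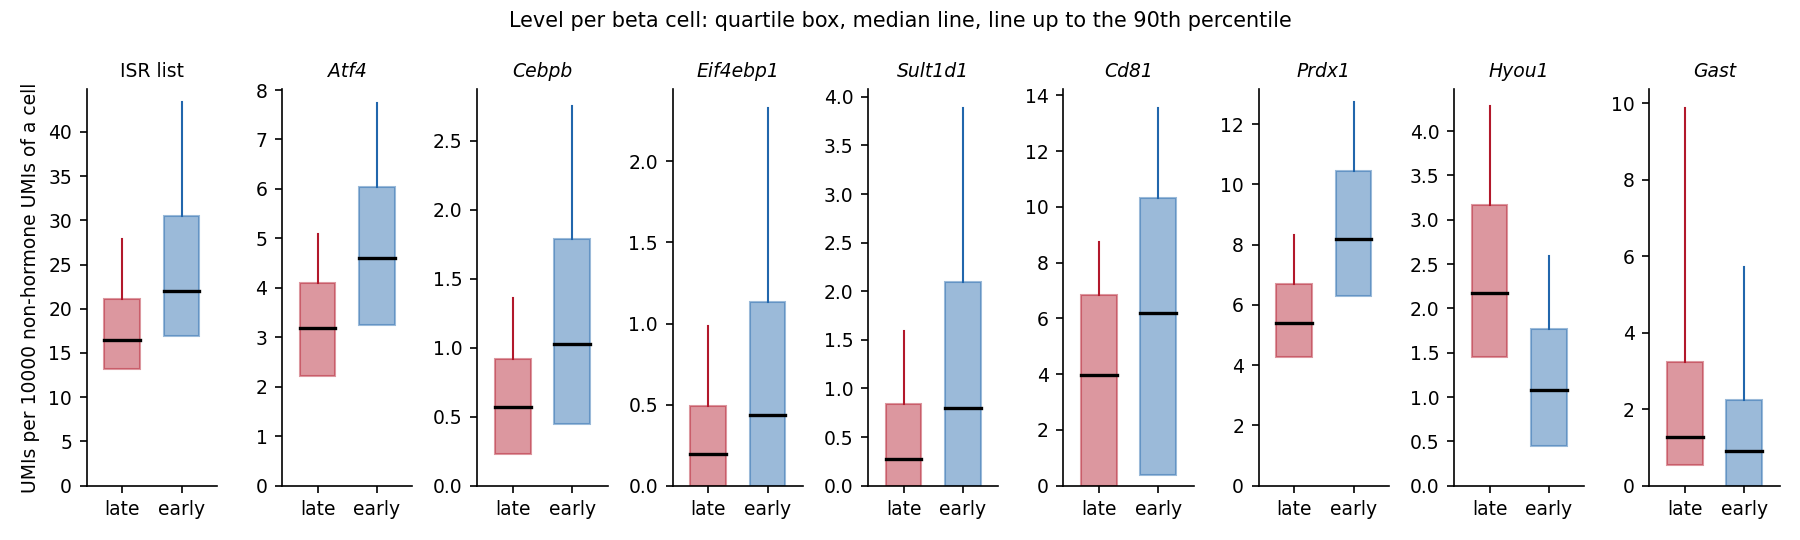
Level per beta cell (UMIs per 10000 non-hormone UMIs of the cell, linear axes from 0) in late db/db (820 cells, left) and early db/db (1595 cells, right), with quartile boxes, median lines and a line up to the 90th percentile. ISR list is the sum over the 34 integrated stress response genes. Medians are lower in late db/db for the list (16.5 against 21.98), Atf4, Cebpb, Eif4ebp1, Sult1d1, Cd81 and Prdx1, and higher for Hyou1 and Gast.

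Protein folding genes of the endoplasmic reticulum did not follow the stress response genes. All 26 listed chaperones and folding enzymes entered, 20 had a log2 ratio above 0, and the list median was 0.09. Of the 26, 1 was at least 1.5-fold higher and none lower, where 1.39% of all genes that entered were higher by as much. The 1 gene was Hyou1, the large chaperone of the reticulum, with 245 CPM in late and 128 CPM in early db/db, a log2 ratio of 0.94 (0.88 to 0.99), and with 147 CPM with the intervention and 235 CPM in the control. Hyou1 had a log2 ratio of 0.99 in alpha and 1.02 in delta cells, so its difference was of like size in all 3 classes. Hspa5, the main chaperone of the reticulum, had 3653 CPM in late and 3229 CPM in early db/db, a log2 ratio of 0.18 (0.17 to 0.19). P4hb, the protein disulfide isomerase gene, had 910 CPM in late and 698 CPM in early db/db, and Dnajb9, an inhibitor of the sensor IRE1, had 834 and 1039 CPM.

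The sensors and degradation genes of the reticulum were close at both ages, with none of 16 past 1.5-fold and a median of -0.01. Herpud1, of reticulum-associated degradation, had 531 CPM in late and 789 CPM in early db/db, a log2 ratio of -0.57 (-0.60 to -0.54). Xbp1, the transcription factor gene spliced by IRE1, had 262 CPM in late and 266 CPM in early db/db. The median of the folding enzymes ran from -0.07 to 0.31 over the settings tried, with the negative value taken relative to alpha and delta cells.

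Genes of beta cell identity were slightly higher in late db/db. Of 20 listed transcription factors 12 entered, 10 were above 0 and none reached 1.5-fold, with a median of 0.15. Nkx6-1 had 228 CPM in late and 192 CPM in early db/db, a log2 ratio of 0.25 (0.20 to 0.30), with 332 CPM with the intervention and 582 CPM in the control. Pdx1 had 142 CPM in late and 121 CPM in early db/db, and 237 CPM in the control. Mafa, a maturity factor, did not enter, at 39.3 CPM in late and 30.7 CPM in early db/db beside 110 CPM with the intervention and 1036 CPM in the control. Both ages were thus far below the control library for Mafa, and the ages differed by 0.36 (0.23 to 0.48) on the log2 scale. Relative to alpha and delta cells the median of the factors was -0.01, and the 9 factors measured in those cells had medians of 0.25 in alpha and 0.29 in delta cells.

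Of the 13 listed genes of glucose entry and closure of the KATP channel 5 entered, 4 above 0 and 1 below it, with a median of 0.16. The 1 gene below 0 was also the 1 gene past 1.5-fold, where 2.79% of all genes that entered were as far apart. This was G6pc2 (chromosome 2, 69211073 to 69227841), the islet glucose-6-phosphatase that opposes glucokinase, with 391 CPM in late and 600 CPM in early db/db, a log2 ratio of -0.62 (-0.65 to -0.58). The order of the libraries for G6pc2 was late db/db, early db/db, the intervention at 1067 CPM and the control at 1594 CPM. Slc2a2, the glucose transporter gene, did not enter and had 43.1 CPM in late and 46.8 CPM in early db/db. Ffar1, a fatty acid receptor gene, had 57.4 CPM in late and 38.6 CPM in early db/db, a log2 ratio of 0.57 (0.46 to 0.68). Irs2, which relays insulin and growth factor signals, had 112 CPM in late and 74.97 CPM in early db/db, a log2 ratio of 0.58 (0.50 to 0.66).

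Granule and exocytosis genes went both ways. Of 18 granule and processing genes 12 were above 0 and none was past 1.5-fold, with a median of 0.14. The granin gene Chgb had 7213 CPM in late and 6027 CPM in early db/db, a log2 ratio of 0.26 (0.25 to 0.27), and Ptprn, of the granule membrane, had 933 and 687 CPM. Cpe, the carboxypeptidase that trims prohormones, was on the other side with 2803 CPM in late and 3894 CPM in early db/db, a log2 ratio of -0.47 (-0.49 to -0.46). Of 11 measured exocytosis genes 1 was past 1.5-fold, where 2.79% of all genes that entered were as far apart. The gene was Cplx2, a complexin of the release machinery, with 126 CPM in late and 78.4 CPM in early db/db. Its log2 ratio was 0.68 (0.60 to 0.76). Cplx2 had a log2 ratio of 0.59 in alpha and 0.51 in delta cells.

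Genes of dedifferentiation and ectopic hormones differed both ways between the ages. Of 15 listed genes 7 entered, of which 5 had a log2 ratio below 0 and 2 above it, 3 were at least 1.5-fold lower in late db/db and 1 higher, where 1.39% of all genes that entered were lower and 1.39% higher by as much. Their median log2 ratio of -0.37 turned to 0.12 with no filter on low values, when 11 members were counted. Neurog3, the endocrine progenitor factor gene, did not enter and was higher in late db/db, with 327 UMIs or 11.5 CPM in late and 163 UMIs or 5.33 CPM in early db/db, a log2 ratio of 1.11 (0.84 to 1.39). Slc5a10, a sodium-coupled sugar transporter gene, had 42.5 CPM in late and 80.6 CPM in early db/db, a log2 ratio of -0.92 (-1.02 to -0.82), beside 17.1 CPM with the intervention and 2.26 CPM in the control. Serpina7, the gene of thyroxine-binding globulin, had 401 CPM in late and 646 CPM in early db/db, a log2 ratio of -0.69 (-0.72 to -0.65), beside 11.8 CPM in the control. Cd81, a tetraspanin gene, had 414 CPM in late and 625 CPM in early db/db, a log2 ratio of -0.59 (-0.63 to -0.56), beside 76.9 CPM in the control. These 3 were lower at the later age and above the control at both ages. Csn3, a casein gene outside the list, had 58.7 CPM in late and 96.5 CPM in early db/db, beside 0.20 CPM in the control. Aldh1a3, a retinaldehyde dehydrogenase gene known from dedifferentiating beta cells, had 422 CPM in late and 369 CPM in early db/db, a log2 ratio of 0.19 (0.16 to 0.23), and 3.48 CPM in the control.

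The 2 ectopic peptide genes parted. Gast (chromosome 11, 100334407 to 100336996), the gastrin gene, had 570 CPM in late and 330 CPM in early db/db, a log2 ratio of 0.79 (0.75 to 0.82), with 162 CPM with the intervention and 2.35 CPM in the control. Cck, the cholecystokinin gene, had 1748 CPM in late and 2252 CPM in early db/db, a log2 ratio of -0.37 (-0.38 to -0.35), beside 0.06 CPM in the control. As a description only, since the rule used insulin share and cut it off at 20%, each was highest in both libraries in the group of cells with the lowest insulin share. Gast stood at 742, 516 and 437 CPM from the lowest to the highest group in late db/db and at 545, 256 and 140 CPM in early db/db. Cck stood at 2587, 1647 and 915 CPM in late and 3575, 1758 and 1115 CPM in early db/db. Mafa ran the other way, at 10.9, 24.6 and 88.2 CPM in late and 14.8, 20.8 and 63.6 CPM in early db/db.

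Sult1d1 and Cdkn1a were also at least 2-fold lower and were not 5 times as high in other cells as in beta cells. Sult1d1 (ENSMUSG00000029273, chromosome 5, 87554645 to 87569027), a sulfotransferase gene, had 57.9 CPM in late and 140 CPM in early db/db, a log2 ratio of -1.27 (-1.36 to -1.19). The other libraries stood at 128 CPM with the intervention and 49.8 CPM in the control, so late db/db was nearest to the control. Cdkn1a (chromosome 17, 29090976 to 29100727), the gene of the cell cycle inhibitor p21, had 35.2 CPM in late and 73.3 CPM in early db/db, a log2 ratio of -1.06 (-1.17 to -0.95). In late db/db Cdkn1a was at 69.1 CPM in the shallowest group of beta cells and 25.9 CPM in the deepest, and in early db/db at 95.4 and 70.2 CPM. Kept cells outside the beta cell rule held 49.1 CPM of Cdkn1a in late and 104 CPM in early db/db. Both levels were above the beta cells of the same library, and the difference was in the same direction. Cdkn1a had a log2 ratio of 0.24 in alpha cells (-0.07 to 0.55) and 0.06 in delta cells (-0.49 to 0.62). Its log2 ratio less the mean of those 2 was -1.21, and Cdkn1a was the 1 gene still at least 2-fold lower on that measure. In alpha cells it rested on 126 late and 301 early UMIs, and in delta cells on 59 and 55.

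The large housekeeping groups differed little. Of 75 nuclear oxidative phosphorylation genes 61 were below 0, with a median of -0.14, and of 31 proteasome genes 26 were below 0, with a median of -0.18, and none of either group was past 1.5-fold. Of 17 antioxidant genes 1 was past 1.5-fold, where 2.79% of all genes that entered were as far apart. The gene was Prdx1, a peroxiredoxin gene, with 562 CPM in late and 853 CPM in early db/db. Its log2 ratio was -0.60 (-0.63 to -0.57). Prdx1 had a log2 ratio of -0.47 in alpha and -0.69 in delta cells. Sod1, the cytosolic superoxide dismutase gene, was on the other side with 161 CPM in late and 111 CPM in early db/db. The 22 lysosome and autophagy genes had a median of -0.13. With all UMIs as the denominator fewer genes entered and the median over them lay 0.17 higher, and the medians of these groups then lay between -0.00 and 0.07.

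**Figure D4:**
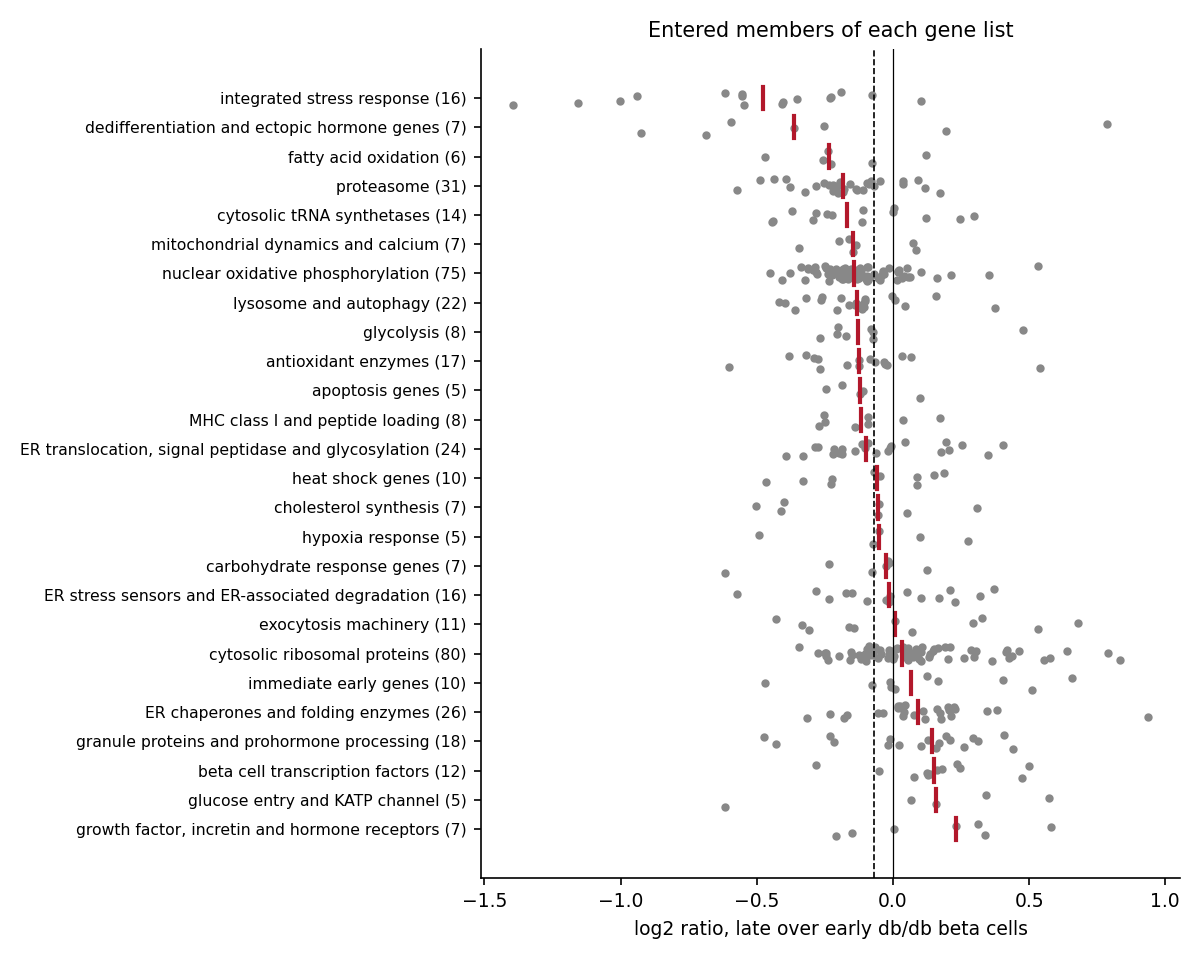
Log2 ratio of late over early db/db beta cells (x axis) for the measured members (grey points) of each gene list with at least 5 of them (rows, number in brackets), with the list median as a red bar. The dashed line is the median of all genes, at -0.07. The integrated stress response lies lowest, at -0.48.

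In immune and growth programmes few measured genes were past 1.5-fold. Of 26 interferon response genes 2 entered and neither was past 1.5-fold, and the 8 measured genes of MHC class I and peptide loading had a median of -0.12 and none past 1.5-fold. H2-K1, a class I heavy chain gene, had 188 CPM in late and 227 CPM in early db/db, beside 646 CPM in the control, and was higher in the cells outside the beta cell rule. Of 10 measured immediate early genes 1 was past 1.5-fold, where 2.79% of all genes that entered were as far apart. The gene was Jund, with 534 CPM in late and 339 CPM in early db/db, and its log2 ratio was 0.51 in alpha and 0.61 in delta cells. Of 7 measured growth factor, incretin and hormone receptor genes 5 were above 0 and none was past 1.5-fold. Their median of 0.23 was the highest among lists with at least 5 measured members. Over the 5 of them measured in all 3 classes it was 0.005 in beta cells. The 3 measured cell cycle genes had a median of 0.27, with 2 above 0. Ccnd2, a cyclin that adult beta cells need for division, had 351 CPM in late and 292 CPM in early db/db, a log2 ratio of 0.27 (0.22 to 0.31), beside 2241 CPM in the control.

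Malat1, Gm42418 and Lars2 were lower in early db/db than in each of the other 3 libraries. Malat1, a nuclear long noncoding RNA, had 25391 CPM in late and 11427 CPM in early db/db beta cells, with 24674 CPM with the intervention and 25713 CPM in the control. Gm42418, a locus that overlaps ribosomal RNA, had 3086 CPM in late and 500 CPM in early db/db, with 2998 CPM with the intervention and 4437 CPM in the control. Gm42418 had a log2 ratio of 2.61 in alpha and 2.52 in delta cells, beside 2.63 in beta cells, and that of Malat1 was 0.81 and 0.98 beside 1.15. The mitochondrial leucyl-tRNA synthetase gene Lars2 had 122 CPM in late and 34.0 CPM in early db/db, with 136 CPM with the intervention and 205 CPM in the control, and had a log2 ratio of 2.71 in alpha and 2.07 in delta cells.

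Counts that near-identical copies can share also differed and are uncertain. The ribosomal protein genes Rpl35, Rps29 and Rpl38 had 880, 3515 and 2642 CPM in late against 494, 2032 and 1695 CPM in early db/db, and the other 77 measured ribosomal protein genes were within 1.5-fold. Gm10260 had 188 CPM in late and 68.4 CPM in early db/db, and Gm10076 had 245 and 71.8 CPM. On the lower side Ftl1-ps1, a ferritin gene copy, had 29.5 CPM in late and 83.4 CPM in early db/db, and Rpl10-ps3 had 163 and 328 CPM. Each of these genes had a ratio of like size in alpha and delta cells, such as -1.48 and -1.61 for Ftl1-ps1 beside -1.502 in beta cells. Polr2l, an RNA polymerase subunit gene, completed the higher genes with 67.1 CPM in late and 31.7 CPM in early db/db.

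**Figure D5:**
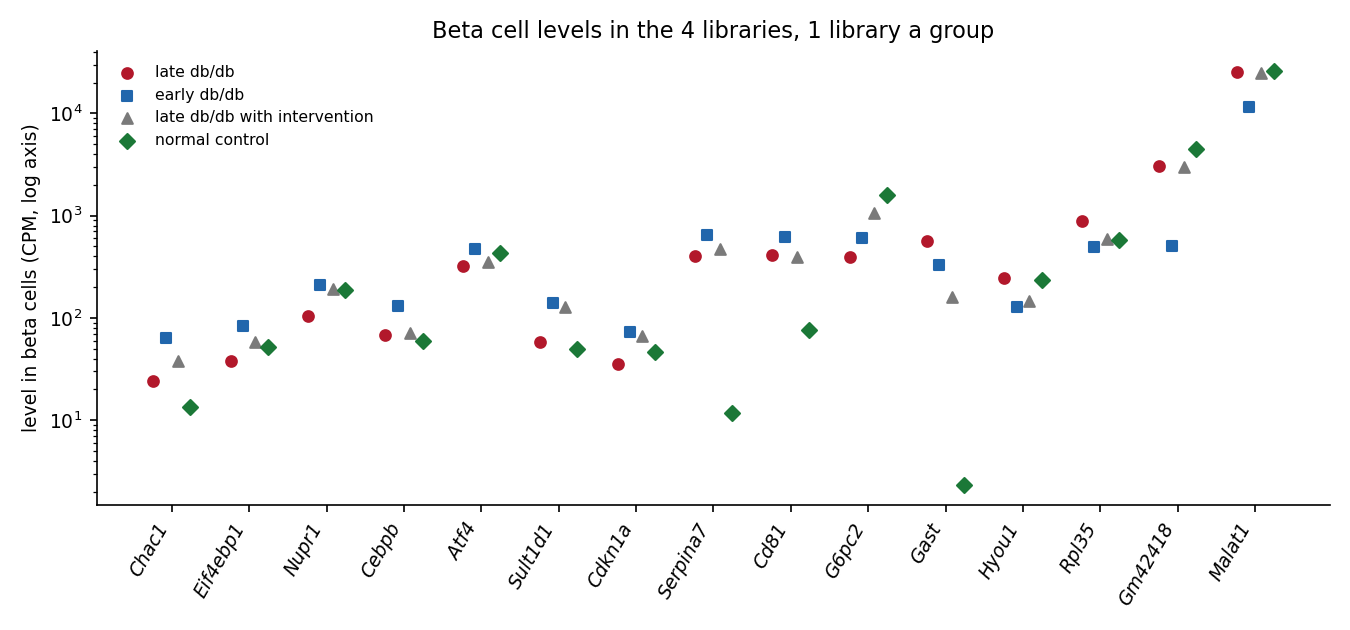
Beta cell level (CPM, log y axis) of 15 named genes in late db/db (red circles), early db/db (blue squares), late db/db with intervention (grey triangles) and normal control (green diamonds), 1 library each. Early db/db is the highest library for Chac1, Eif4ebp1, Nupr1, Cebpb and Atf4 and the lowest for Malat1, Gm42418, Rpl35 and Hyou1.

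Ratios also differed with the length of the gene. With the 3390 genes of known span that were neither high in other cells nor carried by few cells put in 5 equal bins by span, the median log2 ratio was -0.13 in the shortest bin, then -0.14, -0.11 and -0.02, and 0.13 in the longest. The median span was 3.74 kb in the shortest and 99.98 kb in the longest bin. By 1.5-fold or more, 15 genes of the longest bin were higher and 1 was lower, against 10 higher and 6 lower in the shortest bin. The medians from the shortest to the longest bin were -0.05, -0.07, -0.01, 0.09 and 0.19 in alpha cells, and -0.14, -0.17, -0.10, 0.03 and 0.13 in delta cells. Integrated stress response genes were not split by span, and the part of span in their values was not tested.

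Taken against the mean of the alpha and delta ratios, a measure chosen after seeing the data, 2 of 3301 genes were higher and 1 lower by 2-fold or more, and by 1.5-fold or more 10 were higher and 10 lower. Cdkn1a led the lower genes at -1.21 on the log2 scale. Ttyh1, Lrrc10b, Oxct1, Sult1d1, Ube2e2, the amino acid transporter gene Slc38a2, the sterol enzyme gene Msmo1, Rgs16 and Nsun2 followed, from -0.87 for Ttyh1 to -0.59 for Nsun2. The 2 higher genes were Nupr1 at 2.11 and Caly at 1.08. Nupr1 had log2 ratios of -2.91 in alpha and -3.32 in delta cells, on 12 and 7 late UMIs. Caly had a log2 ratio of -1.39 in alpha cells (10 late and 74 early UMIs) and -0.11 in delta cells (229 and 240 UMIs). Sult1d1 was at -0.67, with 17 late and 62 early UMIs in alpha cells, and Chac1 had too few UMIs in delta cells for this measure.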

How the data were processed

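Islet cells of 4 groups were profiled with 1 library each by the 10x Genomics 3′ kit (version 3 chemistry). Raw UMI counts per gene and barcode, deposited by the authors, were used as they are. They came from Cell Ranger 3.0.0 per the file headers, and the submitters' processing notes also name CASAVA 1.8, Seurat and build mm10. Cells were filtered and beta cells taken by the rule in the report, without the authors' clusters, doublets were removed only in an alternative, and counts were summed per library. The beta cells, gene lists and comparisons were chosen with earlier results of these data known. Ratios carry exact conditional binomial 95% intervals for counting error. With 1 library per group no p-value was computed. Named genes were up to 15 a direction past 2-fold that were not 5-fold higher in other cells, up to 10 a direction of those that were, up to 4 past 1.5-fold per list, and fixed key genes. Others named (such as Csn3, Herpud1, P4hb, Dnajb9, Sod1, Ffar1, Irs2, Ptprn, Cpe, Ccnd2, Caly, Neurog3 and the smaller stress response genes) were picked after their values were seen. A gene was carried by few cells when the top 1% of beta cells held over 50% of its UMIs. Gene coordinates came from GENCODE M21 (GRCm38), in which 30766 of 30905 gene identifiers matched, and promoters from RefSeq. Python 3.11.15, numpy 2.4.6, scipy 1.17.1, pandas 2.3.3, scanpy 1.11.5 (doublet scores) and edgeR 4.0.16 (TMM factors only) were used.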

Additional observations from a re-analysis of the deposited data

Results flagged for a closer look

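Hbb-bs, a hemoglobin gene, had opposite directions in 2 cell classes of the same libraries. Its log2 ratio of late over early db/db was -1.08 in alpha cells, on 15 late and 90 early UMIs, and 1.57 in beta cells, where 2 late and 3 early barcodes held 97.7% and 92.6% of the UMIs of the 4 hemoglobin genes. The difference was not tested.

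Apoe had a log2 ratio of -1.51 in delta cells, on 58 late and 161 early UMIs, and 1.59 in beta cells. In the kept cells outside the beta cell rule it stood at 1685 CPM in late and 4038 CPM in early db/db. The difference between the classes was not tested.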

How the results depend on the processing

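No paired analysis was possible because each group had 1 library, and for the same reason no library could be left out in turn. Over 12 other settings and 3 more chosen after seeing the data, the median of the integrated stress response list kept its direction, from -0.53 to -0.24, while that of dedifferentiation and ectopic hormone genes, -0.37, turned to 0.12 with no filter. The counts of 15 genes higher and 26 lower by 2-fold, and of 48 higher and 48 lower by 1.5-fold, moved more. With all UMIs of the beta cells as denominator the median of all genes shifted by 0.17, and 10 genes were lower by 2-fold, 80 higher and 15 lower by 1.5-fold, of 1379, so that 52.4% and 84.2% of the differences were higher. With TMM factors 38.8% and with median-of-ratios scaling 35.7% of the 1.5-fold differences were higher. A minimum of 10 CPM gave 48 higher and 49 lower by 2-fold and 195 and 125 by 1.5-fold, of 8614 genes. No filter on low values gave 1444 and 668, and 2367 and 1385, of 17223 genes, with a median shift of 0.12. Removal of the 318 late and 184 early cells with the highest doublet scores, of which 74 and 64 were beta cells, left 8 genes higher by 2-fold and turned the log2 ratios of Hba-a2 to -4.10, Hbb-bs to -3.85, Hba-a1 to -4.18 and Hbb-bt to -4.33. The doublet caller's own threshold marked 1.10% of late and 1.27% of early kept cells. With each cell weighing the same, 95 genes were higher by 1.5-fold. With free RNA subtracted, scaled on B cell, T and NK cell and acinar markers to 4.75% of late and 8.97% of early UMIs, 10 genes were lower by 2-fold and 31 by 1.5-fold. In cells of 20000 to 100000 UMIs Hbb-bt was at -0.054. Of those 3, leaving out the hemoglobin-rich barcodes put Hba-a2 at -0.12, Hbb-bs at -0.076 and Hba-a1 at -0.42. Leaving out genes high in other cells or carried by few cells left 6 higher and 7 lower by 2-fold and 28 lower by 1.5-fold. Relative to alpha and delta cells 2 genes were higher and 1 lower by 2-fold and 10 each way by 1.5-fold, and the log2 value was 0.043 for Ftl1-ps1, 2.11 for Nupr1, -0.067 for Hyou1, -0.019 for Gm10260, -0.046 for Gm10076, -0.54 for Lars2 and 0.25 for Ddit3, which was at -0.23. The cause of these moves was not tested. Of single-gene values, 583 moved within the allowed range, 250 moved beyond it, and 14 values of genes at least 1.5-fold apart changed direction. Depth limits mainly the alpha and delta values, whose counts are given beside them.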
